A study of Mus musculus with 23 samples.

Results

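The 30 genes described here encode enzymes that make cholesterol, the proteins that switch those enzymes on and off, and proteins that move, export or store sterols. They were chosen by gene symbol, with earlier results of these data known, and all 30 were found among the 52143 genes of the deposited count table. By role, 8 act in the mevalonate and isoprenoid steps, 11 in the squalene and sterol steps, 5 in the control of the transcription factor SREBP2, and 6 in sterol transport and storage. All 30 passed the filter on low counts in each of the library sets used below.

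The 23 libraries came from mouse retinal organoids, which are retinal tissue grown from stem cells in culture. A single clone of induced pluripotent stem cells was used, made from wild-type Nrl-GFP embryonic fibroblasts with doxycycline-inducible lentiviral Oct3/4, Sox2, Klf4 and c-Myc; the Nrl-GFP reporter marks rod photoreceptors. All organoids received taurine, 9-cis retinal and insulin-like growth factor 1 between day 10 and day 26. From day 10 they were also given bovine serum albumin (BSA), or linoleic acid (LA) or docosahexaenoic acid (DHA) carried on BSA, each fatty acid at 26 µM; the labels store the prefix of that unit in a symbol font. At day 26 non-essential amino acids, B27 without vitamin A and 2% fetal bovine serum were added to the culture, and some organoids were given fibroblast growth factor 1 (FGF1) at 200 ng/ml as well. Neural retina was dissected from pooled organoids. The groups held 2 libraries each at day 26 (BSA, LA, DHA), 3 each at day 32 without FGF1, and 3 (BSA), 3 (LA) and 2 (DHA) at day 32 with FGF1. The labels call them biological replicates without saying what separated them, so p-values measure the spread between these libraries.

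Cholesterol is made from acetyl-CoA through mevalonate, isoprenoid pyrophosphates, squalene and lanosterol. When sterols are scarce in the endoplasmic reticulum, SCAP carries SREBP2 to the Golgi, where proteases free its active part, which then raises transcription of the enzyme genes; when sterols are plentiful, INSIG proteins hold SCAP back. Sterol excess also activates the LXR receptors, which raise the exporters Abca1 and Abcg1. The neural retina both makes cholesterol and takes it up, and photoreceptor membranes and Müller glia are known sites of its handling.

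SREBP2 binds sterol regulatory elements in promoters and often works beside NF-Y, which binds CCAAT boxes. Stretches of 6 member promoters are printed below to show these letters at genes whose values follow. Sequences are RefSeq's for GRCm38.p6, printed along the gene's strand, and capitals mark the element TCACNCCAC or its first 8 letters, and CCAAT or its reverse complement ATTGG. They lie at chr13:119690174-119690261 (Hmgcs1, plus strand), chr15:82147067-82147154 (Srebf2, plus), chr8:122443423-122443489 (Mvd, minus), chr10:76531503-76531587 (Lss, plus), chrX:72918461-72918520 (Nsdhl, plus) and chr1:121332590-121332658 (Insig2, minus). None of these stretches overlaps an annotated exon. The first 5 belong to genes that appear among the lower calls below, and Insig2 to a gene among the higher calls.
Hmgcs1: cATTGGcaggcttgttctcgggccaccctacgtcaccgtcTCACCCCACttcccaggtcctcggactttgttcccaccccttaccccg
Srebf2: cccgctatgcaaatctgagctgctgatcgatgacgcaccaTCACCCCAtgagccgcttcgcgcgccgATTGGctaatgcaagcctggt
Mvd: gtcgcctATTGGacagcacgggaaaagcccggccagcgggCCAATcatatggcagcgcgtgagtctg
Lss: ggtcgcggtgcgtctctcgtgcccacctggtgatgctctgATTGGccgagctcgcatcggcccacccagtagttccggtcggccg
Nsdhl: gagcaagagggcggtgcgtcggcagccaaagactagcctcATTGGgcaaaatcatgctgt
Insig2: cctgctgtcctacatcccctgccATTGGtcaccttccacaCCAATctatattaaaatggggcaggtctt

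RefSeq promoters, from 250 bases before to 50 bases after each start, matched 24 of the 30 genes with 32 promoters; Fdps, Fdft1, Sqle, Stard4, Npc1 and Abcg1 had no entry. Searched on both strands, TCACNCCAC was found only in the Hmgcs1 promoter, 137 bases before the start, which is 3.12% of the member promoters against 1.24% of all 32851 promoters. Its first 8 letters, TCACNCCA, which every full match also holds, were found at Hmgcs1, Msmo1 and Srebf2, 9.38% against 4.36%. CCAAT was found in 22 of the 32 promoters (68.8%), which belong to 21 genes, against 37.4% of all promoters. CCAAT can share the letters CCA with the end of TCACNCCA, but the matches printed here stand apart. A CCAAT match is present at genes that were called lower and at genes that were called higher.

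The libraries fell into a deeper set of 12 (16029580 to 20510550 counts each) and a shallower set of 11 (10405663 to 11888224), which the labels do not name. The deeper set holds all of day 26 and replicates 1 and 2 of the FGF1 groups; the shallower set holds every library that saw no FGF1 at day 32, and the replicates numbered 3 of the BSA and LA groups given FGF1. Comparisons were therefore made within a set wherever the design allowed. Day 32 without FGF1 has no deeper library, so there the set and the condition cannot be told apart. The retinal label was checked against marker genes. Crx, the photoreceptor transcription factor, lay between 946 and 1520 CPM (counts scaled to library size) over all 23 libraries, and Nrl between 490 and 1050 CPM. Others of the 10 photoreceptor markers fell much lower, with 2.97 to 227 CPM for Gnat1, 8.49 to 384 CPM for Rcvrn and 44.7 to 448 CPM for Pde6g. Pigment epithelium markers were also present: of 6, Dct (7.49 to 59.3 CPM), Ttr (up to 188 CPM), Pmel, Tyrp1 and Mitf were detected in all 23 libraries, and Mlana was at 0 in 7.

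At day 26, member levels differed widely when set per kilobase of transcript. The highest medians over the 6 libraries were those of Hmgcs1 (137 CPM per kilobase, range 111 to 148), which makes HMG-CoA, and Fdps (131, range 106 to 150), which makes farnesyl pyrophosphate. Their ranges overlap, so the order of these neighbours is not settled. Srebf2, the SREBP2 gene, followed at 77.8 CPM per kilobase (68.2 to 88.0), Msmo1 at 74.2 (65.8 to 78.1), Srebf1 at 72.5 (57.6 to 114), Insig1 at 70.8 (65.9 to 79.8) and Acat2 at 67.9 (55.5 to 73.9), all with overlapping ranges. At the low end stood Mylip, a ubiquitin ligase that LXR induces, at 6.64 CPM per kilobase (6.23 to 7.48), and Hsd17b7, a sterol ketone reductase, at 4.99 (3.27 to 5.08), whose ranges do not overlap.

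The deeper libraries allow day 26 to be set against day 32 with FGF1, 6 against 6 over the 3 media, a contrast that holds age, the change of medium and FGF1 together; these cannot be told apart. Most genes of cholesterol synthesis were lower at day 32 in these libraries. Of the 19 enzyme genes, 12 were called lower and 1 higher at an adjusted p under 0.05 (edgeR's quasi-likelihood test with Benjamini-Hochberg adjustment over 20111 genes), and their median log2 difference was −0.47, beside 0.00 for all genes. Over all genes 28.7% were called, 14.6% higher and 14.1% lower. In 11 of the 19, every day 32 library lay below every day 26 library, as was so for 8.52% of all genes. Over the 30 members, 14 were called lower and 3 higher. The 2 shallower libraries of day 32 with FGF1 are not in this fit, and a fit of all 23 libraries kept 4 of the 14 lower calls. In bulk libraries such as these, fewer cells of a type and less RNA per cell cannot be told apart.

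**Figure D1:**
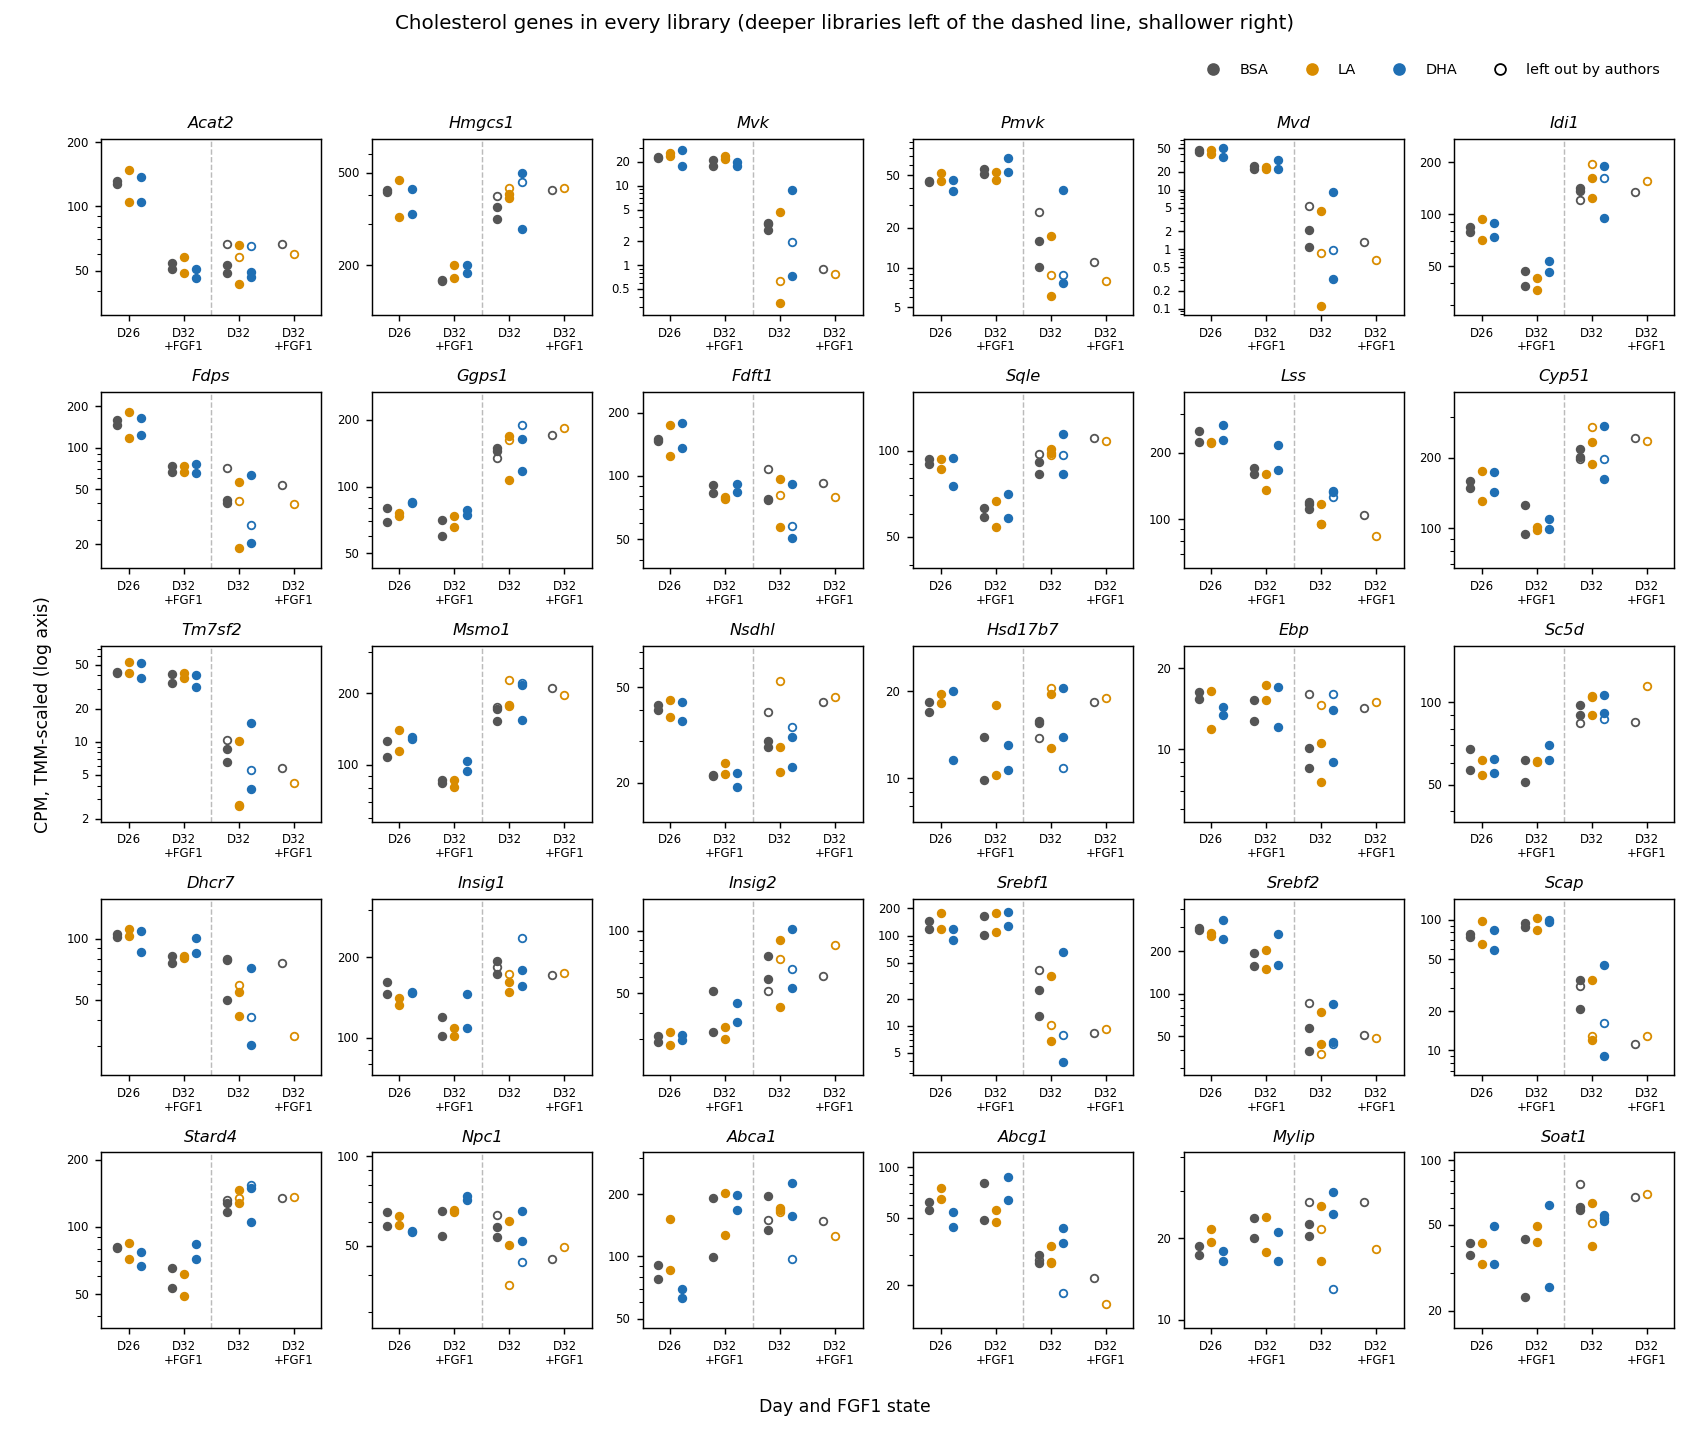
Level of the members in each library, as TMM-scaled CPM on a log axis, by day and FGF1 state, with the deeper libraries left and the shallower right of the dashed line; colour gives the medium and open points mark libraries absent from the authors' normalized table. The 6 deeper day 32 libraries sit below the 6 day 26 libraries for Acat2, Hmgcs1 and Fdps, and Mvd reaches 0.110 CPM in a shallower library.

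The mevalonate and isoprenoid steps held the largest differences. Acat2, the cytosolic thiolase of the first step (chromosome 17, 12942890 to 12960747, GRCm38), had 105, 130 and 148 CPM at day 26 (lowest, median, highest) and 46.0, 50.7 and 57.6 CPM at day 32 with FGF1. The highest day 32 library was below the lowest of day 26, a 2.42-fold decrease (log2 difference −1.27, 95% interval −1.52 to −1.02, edgeR adjusted p = 1.68e-05). Hmgcs1 (chromosome 13, 119690379 to 119708260), the next enzyme, went from 323, 418 and 464 CPM to 171, 180 and 200 CPM. Again the libraries did not overlap, and the decrease was 2.13-fold (log2 −1.09, −1.34 to −0.84, edgeR adjusted p = 4.5e-05).

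Further down the branch, Fdps (chromosome 3, 89093588 to 89101959) had 118, 152 and 180 CPM at day 26 and 65.7, 70.6 and 76.3 CPM at day 32, a 2.07-fold decrease without overlap (log2 −1.05, −1.32 to −0.78, edgeR adjusted p = 9.45e-05). Idi1, the isomerase that makes the second isoprenoid unit, went from 70.5, 81.3 and 94.2 CPM to 36.6, 44.7 and 53.7 CPM (log2 −0.87, edgeR adjusted p = 0.000146). Mvd, which decarboxylates mevalonate pyrophosphate, went from 36.3, 45.4 and 51.3 CPM to 22.2, 23.5 and 31.4 CPM (log2 −0.82, edgeR adjusted p = 0.000492). In both, all 6 day 32 libraries were below all of day 26.

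Mvk and Pmvk, the kinases that act before Mvd, were not called lower. Mvk had a log2 difference of −0.19 (−0.45 to 0.07, edgeR adjusted p = 0.256), with overlapping libraries. Pmvk was called higher at 0.28 (0.07 to 0.50, edgeR adjusted p = 0.0474); its libraries overlapped (37.7 to 52.1 CPM at day 26, 45.9 to 67.3 CPM at day 32), and the call was lost in 9 of the 12 fits that left out 1 library. Ggps1, which makes geranylgeranyl pyrophosphate for protein prenylation and not for sterols, had −0.13 (edgeR adjusted p = 0.263). Of these 8 genes, 5 were called lower and 1 higher, with a median of −0.85.

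In the squalene and sterol steps 7 of 11 genes were called lower and none higher, with a median of −0.47. Fdft1, squalene synthase, the first enzyme committed to sterols, had 125, 148 and 179 CPM at day 26 and 77.7, 83.2 and 91.5 CPM at day 32 (log2 −0.83, −1.07 to −0.59, edgeR adjusted p = 0.000205). Nsdhl, a dehydrogenase of sterol demethylation (chromosome X, 72918557 to 72958514), went from 36.0, 41.0 and 44.2 CPM to 19.3, 21.6 and 24.1 CPM (log2 −0.88, −1.09 to −0.67, edgeR adjusted p = 5.69e-05). For both genes every day 32 library was below every day 26 library.

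Between them in the pathway the differences were smaller. Sqle, squalene epoxidase, had a log2 difference of −0.50 (edgeR adjusted p = 0.00288), Lss, lanosterol synthase, −0.47 (0.00449), Cyp51, the lanosterol demethylase, −0.55 (0.00313), and Msmo1, a methylsterol oxidase, −0.47 (0.00227). Each of these genes had its 6 day 32 libraries below its 6 day 26 libraries; for Lss the closest pair were 218 CPM at day 32 (DHA with FGF1, replicate 1) and 222 CPM at day 26. Dhcr7, which reduces 7-dehydrocholesterol in the last step, had −0.27 (edgeR adjusted p = 0.0432) with overlapping libraries, and its call was lost in 9 of the 12 fits that left out 1 library.

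Hsd17b7 (log2 −0.45, edgeR adjusted p = 0.0728), Tm7sf2 (−0.23, 0.165), Ebp (0.05, 0.817) and Sc5d (0.05, 0.704), which work on the sterol rings, did not pass the test. Some other settings called Hsd17b7 and Tm7sf2 lower, as given below.

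**Figure D2:**
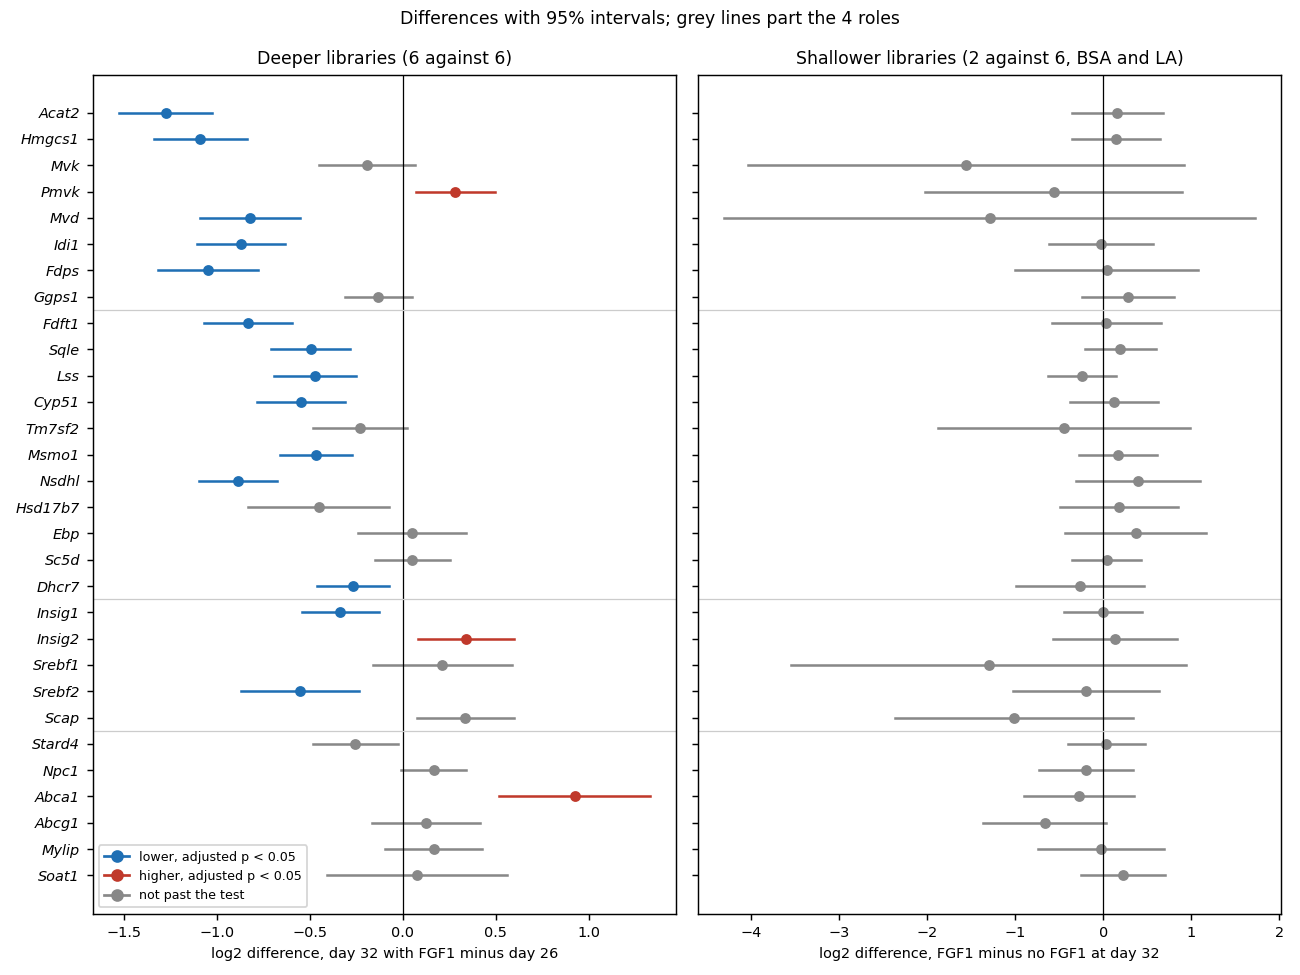
Log2 difference of each member with its 95% interval, for day 32 with FGF1 against day 26 in the deeper libraries and for FGF1 against no FGF1 in the shallower libraries. In the first comparison Acat2 lies lowest at −1.27 and Abca1 highest at 0.92, and in the second every interval crosses 0.

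Among the 5 genes of SREBP control, 2 were called lower and 1 higher. Srebf2 (chromosome 15, 82147181 to 82205379) had 245, 275 and 336 CPM at day 26 and 149, 178 and 266 CPM at day 32 with FGF1 (log2 −0.55, −0.87 to −0.24, edgeR adjusted p = 0.0138). The day 32 values overlapped day 26 only through DHA with FGF1, replicate 1, at 266 CPM. Replicates 1 of the FGF1 groups (195, 203 and 266 CPM in BSA, LA and DHA) were all above replicates 2 (157, 149 and 161 CPM).

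Insig1, a target of SREBP2 that holds SCAP in the endoplasmic reticulum, had 133, 146 and 162 CPM at day 26 and 101, 109 and 145 CPM at day 32 (log2 −0.34, −0.54 to −0.13, edgeR adjusted p = 0.0201). The call was lost in 4 of the 12 fits that left out 1 library. Insig2, its relative that is not driven by SREBP2 in the same way, was called higher, from 28.2, 30.5 and 32.5 CPM to 29.99, 35.3 and 51.2 CPM (log2 0.34, 0.08 to 0.60, edgeR adjusted p = 0.0481), and that call was lost in 10 of the 12. Srebf1, whose products drive mainly fatty acid synthesis, had a log2 difference of 0.21 (−0.16 to 0.59, edgeR adjusted p = 0.383). Scap, the escort protein, had 0.34 (edgeR adjusted p = 0.0532) and was past the threshold with DESeq2 (adjusted p = 0.0325).

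Of the 6 genes of sterol transport and storage, 1 was called. Abca1, the LXR-driven exporter that loads cholesterol onto apolipoproteins (chromosome 4, 53030787 to 53159895), had 62.9, 81.9 and 152 CPM at day 26 and 99.8, 179 and 202 CPM at day 32 with FGF1. It was 1.9-fold higher (log2 0.92, 0.52 to 1.33, edgeR adjusted p = 0.00319), the largest rise among the 30 genes in this comparison, and held its call in each fit that left out 1 library. The highest day 26 library, LA replicate 2 at 152 CPM, overlapped the day 32 libraries, where replicates 1 had 99.8, 126 and 167 CPM (BSA, LA, DHA) and replicates 2 had 191, 202 and 199 CPM. Abcg1, the exporter of the same LXR program, had a log2 difference of 0.13 (edgeR adjusted p = 0.515) and Mylip 0.17 (0.328). Stard4, a carrier of cholesterol within the cell, had −0.25 (edgeR adjusted p = 0.0939), Npc1, which exports cholesterol from lysosomes, 0.17 (0.143), and Soat1, which makes cholesteryl esters, 0.08 (0.831).

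Lists of genes around the pathway held calls in both directions, to be read against the 28.7% called over all genes. Of 11 genes for SREBP cleavage and sterol-regulated protein turnover, 2 were called higher and 1 lower, among them Sec24a, of the coat that carries SCAP to the Golgi (log2 0.48, edgeR adjusted p = 0.00209). Of 14 genes that use isoprenoids, 2 were higher and 2 lower; Icmt, which methylates prenylated proteins, had group means of 266 CPM at day 26 and 502 CPM at day 32 (log2 0.92, edgeR adjusted p = 1.88e-05).

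Of 21 tested genes for sterol movement, esters and oxysterols, 4 were higher and 5 lower. The sterol carriers Gramd1b and Gramd1a were called in opposite directions, 0.89 (edgeR adjusted p = 8.04e-05) and −0.67 (0.000869). Nceh1, a cholesteryl ester hydrolase, had 0.96 (edgeR adjusted p = 0.000547), and Lipa, the lysosomal acid lipase, −0.69 (0.00468). Of 16 genes for fatty acid synthesis under SREBP1, 4 were higher and 2 lower. Elovl5, an elongase of polyunsaturated fatty acids, had 0.72 (edgeR adjusted p = 0.000571), while Acly, which supplies acetyl-CoA to both pathways, had −0.43 (0.00434).

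Marker genes of cell types were read in the same comparison, beside 14.6% of all genes called higher and 14.1% called lower. Of 9 Müller glia markers 7 were called higher, and their summed level was 884 to 1410 CPM at day 26 and 1800 to 2800 CPM at day 32. Of 8 proliferation genes 6 were called lower (sums 295 to 500 and 147 to 248 CPM), and of 8 progenitor markers 6 were lower and 2 higher (1040 to 1430 and 831 to 951 CPM). Photoreceptor markers were higher for 6 and lower for 1 of 10 (3330 to 4640 and 4070 to 6020 CPM), mesenchyme markers higher for 1 of 8 (26.1 to 112 and 36.5 to 464 CPM), and pigment epithelium markers lower for 2 of 6 (22.9 to 362 and 17.1 to 287 CPM). Markers of ganglion, amacrine and horizontal cells were higher for 2 and lower for 2 of 8 (427 to 596 and 470 to 559 CPM). The sums of the photoreceptor list, the mesenchyme list, the pigment epithelium list and this last list overlapped between the days. The part of any of these cell types in the sterol genes was not tested. With all 23 libraries in the fit, 4 of the 14 lower calls (Acat2, Fdps, Fdft1, Lss) and 1 of the 3 higher calls were kept.

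FGF1 could be set against no FGF1 at the same day only within the shallower libraries, with 2 libraries given FGF1 (BSA and LA, replicate 3) against 6 not given it. Each FGF1 group there held 1 library, so the spread in this test is that of the libraries without FGF1. No member was called, nor passed an unadjusted p of 0.05, and no gene was called of the 19484 tested (0%), although 931 genes had an unadjusted p under 0.05 and DESeq2 called 7 higher and 9 lower. The median member difference was 0.02, beside −0.09 for all genes. Hmgcs1 was at 422 and 429 CPM with FGF1 and between 315 and 431 CPM in the 6 libraries without it, a log2 difference of 0.14 (−0.35 to 0.64). The smallest p was that of Abcg1 (log2 −0.67, −1.37 to 0.04, edgeR adjusted p = 0.867), with both FGF1 libraries (21.99 and 15.52 CPM) below all 6 others, which was so for 5.18% of all genes. Ggps1 and Sqle had both FGF1 libraries above the 6 BSA and LA libraries without it, which was so for 6.28% of all genes. A DHA library without FGF1, outside this comparison, was higher still for Ggps1 (191 CPM) and for Sqle (114 CPM).

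Precision in this comparison was low. The median interval of a member reached 0.65 to either side on the log2 scale, against 0.25 in the deeper comparison, and simulated 2-fold changes in this layout were recovered in 0% of cases. The interval of Mvk was among the widest (−4.03 to 0.92). Member differences in this comparison also went with the GC content of the transcripts, as given below. Both FGF1 libraries are among the 5 absent from the authors' normalized table, and they had more mesenchyme marker RNA (sums 366 and 491 CPM) than the libraries of all 3 media without FGF1 (41.9 to 271 CPM), whose part in the values was not tested.

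Day 32 without FGF1 against day 26 set 9 shallower against 6 deeper libraries. Enzyme genes were called in both directions there, 9 of 19 lower and 4 higher, and of the 30 members 13 were called lower and 7 higher with edgeR, beside 60.9% of all 21124 genes (31.4% lower, 29.5% higher). Hmgcs1 had 287, 397 and 499 CPM (lowest, median, highest) at day 32 against 323, 418 and 464 CPM at day 26, a log2 difference of −0.02 (−0.50 to 0.47). Acat2 had 43.3, 53.0 and 66.7 CPM at day 32, all below day 26 (log2 −1.19), and Fdps 18.7, 41.0 and 70.9 CPM (−1.82). Idi1 was higher, at 95.4, 142 and 195 CPM (log2 0.85), as were Ggps1 (0.93), Msmo1 (0.57), Sc5d (0.68), Stard4 (0.79), Abca1 (0.90) and Insig2 (1.16). Of the 23 fits that left out 1 library, 7 lost the call of Idi1 and 11 that of Msmo1.

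Direction and base composition of the transcripts went together. All 13 members called lower had a GC content above the members' median of 48.9%, and all 7 called higher lay at or below it. The correlation of GC content with the log2 difference over the 30 genes was −0.92 (Pearson) and −0.87 (Spearman), and −0.64 over all genes; the genes share their libraries, so this is a description. In the deeper comparison the same correlation (Pearson) over the members was 0.10, and in the shallower FGF1 comparison −0.79. In the latter, members above the GC median had a median log2 difference of −0.26 and the others 0.13. In day 32 without FGF1 against day 26, Mvd differed most, with 0.110, 1.09 and 9.07 CPM at day 32 (log2 −4.07). It was followed by Mvk at −3.04, Tm7sf2 at −2.67, Srebf1 at −2.46 and Srebf2 at −2.30.

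Replicates of day 32 without FGF1 also spread most for these genes. The ratio of the highest to the lowest of the 9 libraries had a median of 2.64 over the 15 GC-rich members and reached 82.7 for Mvd, and a median of 1.77 over the other 15 members. At day 26 these medians were 1.41 and 1.27. DHA replicate 2 was highest for 8 of the 15 GC-rich genes and LA replicate 3 lowest for 8; the median log2 difference of GC-rich members from day 26 was −0.83 in the former and −2.65 in the latter. An offset for GC content moved most of these values. Acat2 kept its call at −1.01 (edgeR adjusted p = 1.29e-05), as did Mvd at −2.26, Mvk at −1.25, Tm7sf2 at −1.27, Fdps at −1.31 and Srebf2 at −0.63, all but Fdps and Acat2 moved by over 1.5 times. Srebf1 lost its lower call at −0.61 (edgeR adjusted p = 0.155), as did Pmvk (−0.40), Dhcr7 (−0.36), Scap (−0.51) and Abcg1 (−0.30). Ggps1 and Stard4 lost their higher calls at 0.12 (edgeR adjusted p = 0.413) and 0.22 (0.174), and Idi1, Msmo1 and Sc5d changed sign. Hmgcs1 was newly called lower at −0.78 (edgeR adjusted p = 0.000118), as were Nsdhl (−0.87), Hsd17b7 (−0.58) and Npc1 (−0.47). Fdft1 (−0.47) and Lss (−0.90) kept their lower calls, and Insig2 (0.75) and Abca1 (0.64) their higher calls. Library set, GC content and condition cannot be told apart here.

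Estimated transcript use of the same genes also parted the sets. Lss-201, the coding transcript of lanosterol synthase, held a median of 36.4% of the gene's estimated counts at day 26 and 32.9% at day 32 with FGF1 in the deeper libraries, but 0% at day 32 without FGF1. The retained-intron transcript Lss-204 held 54.4% there, against 30.9% and 30.6% in the deeper groups, and Lss-207, also with a retained intron, 38.2% against 22.3% and 23.6%. Retained-intron transcripts thus took a large share of the Lss counts in each of these groups. For Mvk the coding transcript Mvk-201 went from 70.6% and 66.2% in the deeper groups to 21.7% (0 to 64.6% over the libraries). The retained-intron transcript Mvk-204 went from 8.44% and 15.9% to 71.0% (34.7 to 100%). Mvk was at 0.329 to 8.81 CPM at day 32 without FGF1, so few counts stand behind some of these shares. Lss-204, Lss-207 and Mvk-204 have a lower GC content (48.7%, 47.1% and 56.3%) than Lss-201 (52.2%) and Mvk-201 (59.6%). The part of GC content in the shares was not tested. Srebf2-201 changed less, with medians of 89.0%, 89.3% and 76.6%. The gene total of Lss at day 32 without FGF1 was 95, 118 and 135 CPM (lowest, median, highest).

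**Figure D3:**
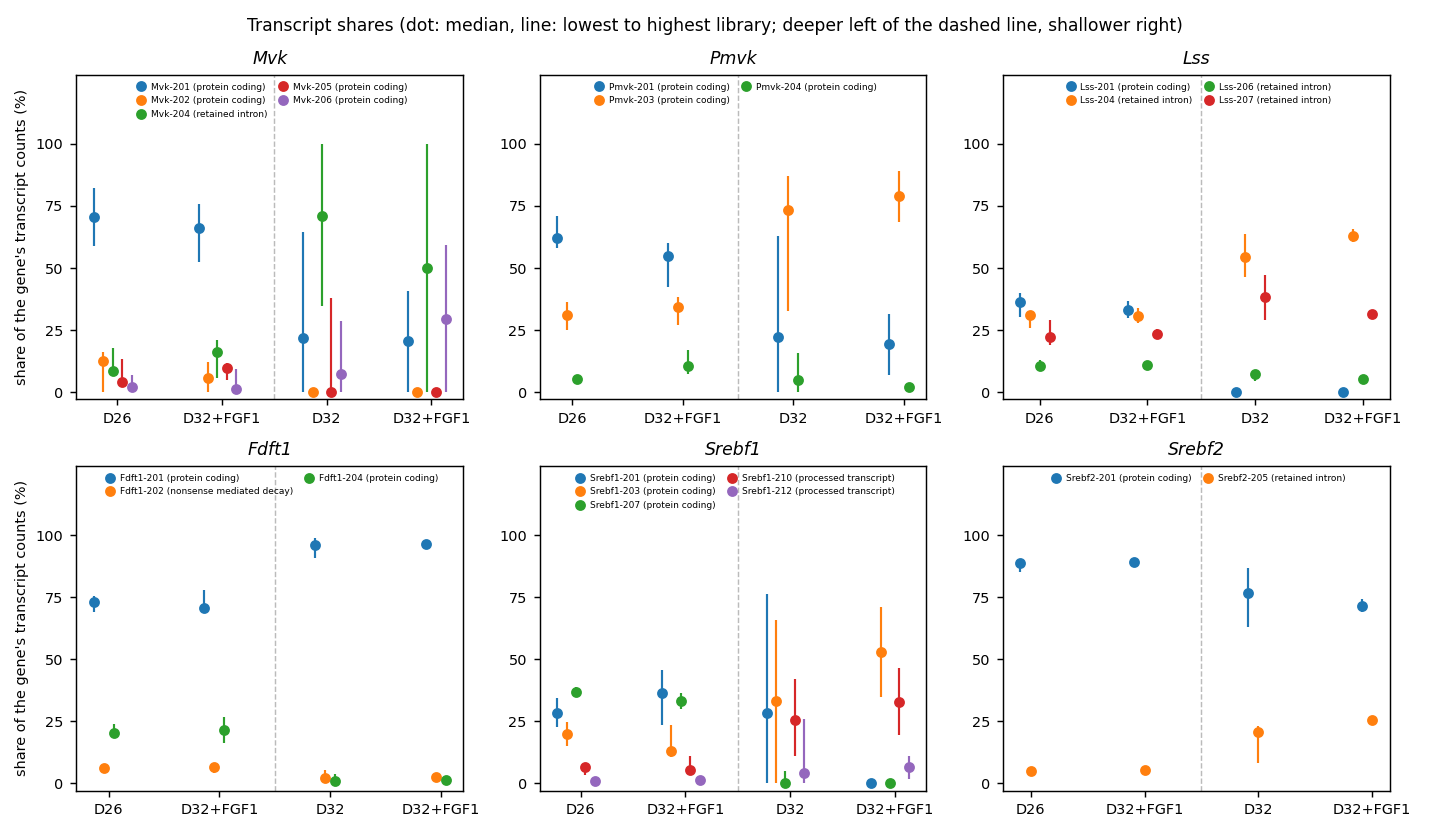
Share of a gene's estimated transcript counts, in percent, for transcripts of selected members by day and FGF1 state, with the deeper libraries left of the dashed line; dots are medians and lines run from the lowest to the highest library. Lss-201 has a median of 36.4% at day 26 and of 0% at day 32 without FGF1.

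The fatty acids were compared within blocks of the same day, FGF1 state and replicate number, which keeps the depth sets apart. The numbers were not shown to pair libraries. The fit still joined same-numbered libraries of all media in every state. At day 32 without FGF1, residuals of same-numbered libraries correlated positively for every number only between LA and DHA, not between BSA and either. No member and no gene was called in any of the 3 pairs at the edgeR adjusted p of 0.05 (0% of 21124 genes), with 1012, 462 and 723 genes at an unadjusted p under 0.05 for DHA against LA, DHA against BSA and LA against BSA. DESeq2 called 10, 2 and 12 genes. Member differences were small: the median size was 0.07, 0.11 and 0.11 on the log2 scale, and the typical 95% interval reached 0.29, 0.29 and 0.27 to either side.

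Lss had the smallest p of the members. At day 26 it was at 268 and 229 CPM in DHA and at 223 and 222 CPM in LA, and at day 32 without FGF1 at 126, 133 and 135 CPM in DHA and 95.5, 118 and 95 CPM in LA. In the deeper libraries of day 32 with FGF1 it was at 218 and 166 CPM in DHA and at 161 and 135 CPM in LA. DHA libraries were thus above LA libraries in each of the 3 states, which held for 16 genes of all tested (0.0757%) and for Lss alone among the members. The difference was 0.32 on the log2 scale (0.15 to 0.48, unadjusted p = 0.00066), which did not pass adjustment over all genes with edgeR (adjusted p = 0.795); DESeq2 gave an adjusted p of 0.0229. In all 3 states these gene totals include the retained-intron transcripts given above.

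Hmgcs1 differed by 0.00 between DHA and LA (unadjusted p = 0.991) and Acat2 by −0.07 (0.475). Insig1 had 0.19 (unadjusted p = 0.047, edgeR adjusted p = 1) for DHA against LA. Within single states no member was called in any pair of media, while 2 genes in all (0.00994% of 20111) were called for DHA against LA and 3 (0.0149%) for LA against BSA at day 32 with FGF1. The largest single-state difference of the transporters at day 26 was that of Abca1, with 69.9 and 62.9 CPM in DHA and 86.1 and 152 CPM in LA (log2 −0.84, −1.54 to −0.14, edgeR adjusted p = 1). Both DHA values were below both LA values, which was so for 13.6% of all genes. The day step was also compared between media in the deeper libraries, and no member was called; Abcg1 had the smallest p (difference of day steps, DHA minus LA, 1.03, 0.32 to 1.74, unadjusted p = 0.0082, edgeR adjusted p = 0.585).

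**Figure D4:**
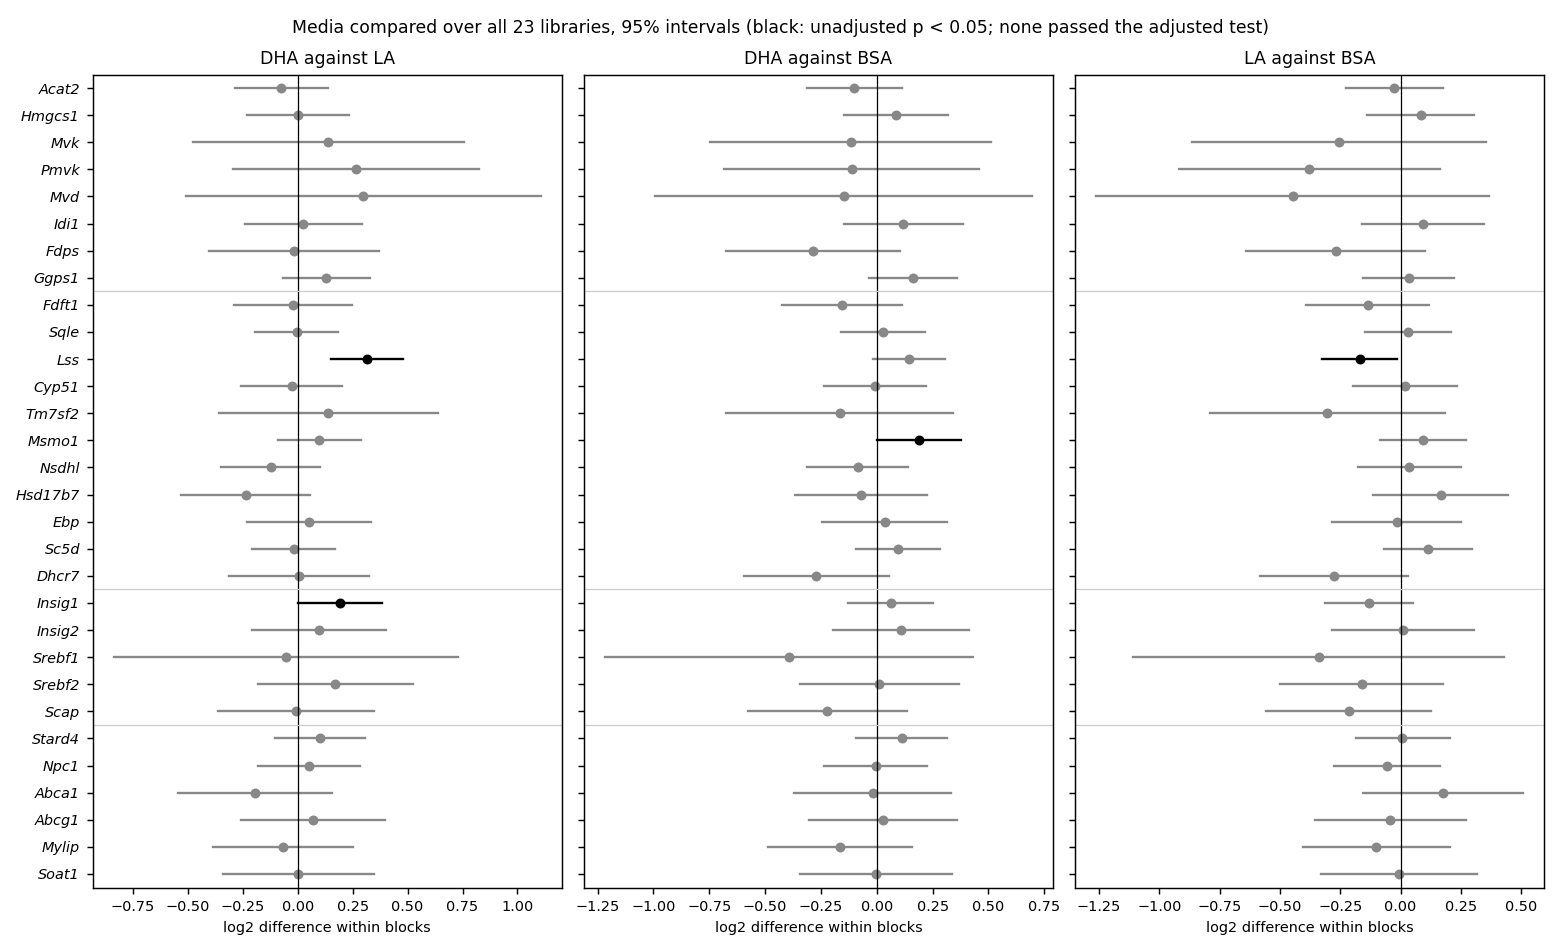
Log2 difference with 95% interval for each member in the 3 comparisons of media within blocks. Values lie between −0.45 (Mvd, LA against BSA) and 0.32 (Lss, DHA against LA), and few intervals leave out 0.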

How the data were processed

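Poly(A) RNA of 23 libraries was measured by stranded RNA sequencing. The tools named in the submitters' processing notes are kallisto 0.45.0, Trimmomatic 0.36 and edgeR, with the build GRCm38.p6 and no order of steps. Expected counts, which are estimates and need not be whole, fill the authors' deposited gene and transcript tables, with 52143 genes and 136550 transcripts. For 393 genes with 1 transcript, the median ratio of gene to transcript count was 0.966 to 1.01 per library. Gene counts and summed transcript counts differed more for some members, with ratios of 1.261 to 2.388 for Tm7sf2 and up to 2.242 for Scap, 1.952 for Dhcr7, 1.86 for Srebf1 and 1.64 for Hsd17b7, so their levels are less certain. The authors' deposited table of normalized values, a signal in CPM, covers 18 libraries; it gave gene names, positions and which 5 libraries were left out.

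The genes and lists were chosen with earlier results of these data known, so counts over them are descriptions. Counts were rounded, filtered with filterByExpr, scaled by TMM and fitted with the quasi-likelihood test of edgeR 4.0.16 (R 4.3.3, limma 3.58.1), with 1 mean per group and residual degrees of freedom of 6 within each depth set. P-values were adjusted by Benjamini-Hochberg over all genes tested and called under 0.05; 95% intervals are approximate. CPM in the text are TMM-scaled. Sets were parted at a total of 1.4e+07 counts. Every member was named; of other lists, up to 4 called genes with the smallest p. GC content came from GENCODE M21, which holds 134456 of the transcripts. Figures used matplotlib 3.10.9 and Python 3.11.15.

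Tested on simulated data, 65.3% of genes changed 2-fold were recovered in the deeper comparison of day 32 with FGF1 against day 26 (19662 genes, 7 false calls), 0% in the shallower FGF1 comparison (18654 genes) and 12.8% in day 32 without FGF1 against day 26 (20644 genes). Other settings tried were DESeq2 1.42.0, RLE size factors, fits with no low-count filter, a replicate block, other choices of libraries, GC offsets (lowess span 0.3), leaving out 1 library at a time and, chosen after seeing the data, summed transcript counts. Residuals of same-numbered libraries correlated at 0.262 to 0.593 between LA and DHA at day 32 without FGF1. They correlated at −0.337 to 0.217 between BSA and DHA there, and at −0.237 to 0.225 between BSA and LA. The blocks of the media fit and the replicate block used the numbers in all groups alike. Between groups of the deeper set, with 2 libraries each, the correlations ran from −0.123 to 0.351. The highest correlation between 2 libraries was 0.9883, so none was a copy.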

Additional observations from a re-analysis of the deposited data

How the results depend on the processing

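In day 32 with FGF1 against day 26, RLE size factors, DESeq2, the replicate block, GC offsets and summed transcript counts kept all 14 lower calls, no filter kept 13, and all 23 libraries together kept 4. Of the 12 lower calls of enzyme genes, 11 held in each fit that left out 1 library. Members higher numbered 1 with GC offsets and 1 with all 23 libraries, and 1 to 3 when 1 library was left out. With all 23 libraries the counts were 1265 genes higher, 736 lower and 4 members lower, and Pmvk changed sign to −0.041. The replicate block also brought Scap, Hsd17b7 and Stard4 past the threshold (edgeR adjusted p = 0.0189, 0.0273 and 0.03). So did no filter for Scap and Hsd17b7 (edgeR adjusted p = 0.0218 and 0.016), and GC offsets for Hsd17b7 and Stard4 (0.0477 and 0.0368). Summed transcript counts did so for Tm7sf2, Scap and Stard4 (edgeR adjusted p = 0.0168, 0.033 and 0.0248). The cause of these changes was not tested.

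The FGF1 comparison called 0 genes with edgeR as reported. It called 5 higher and 2 lower without the filter, 7 and 9 with DESeq2, 2 and 1 with the left-out libraries only, and 40 and 3 with the replicate block, which is a number shared by libraries not shown to be pairs. With all 23 libraries, which mixes the depth sets, it called 5699 and 3864 genes and 11 and 9 members. In that fit these members changed sign: Hmgcs1 −0.73, Mvk 2.46, Pmvk 1.54, Mvd 2.86, Ggps1 −0.66, Sqle −0.40, Lss 0.39, Cyp51 −0.70, Tm7sf2 2.09, Msmo1 −0.69, Sc5d −0.45, Dhcr7 0.49, Srebf1 2.30, Srebf2 1.46, Scap 1.66, Stard4 −0.70 and Abcg1 0.83. In day 32 without FGF1 against day 26, GC offsets left 4139 genes lower and 2 members higher, and turned Idi1 to −0.085, Msmo1 to −0.141 and Sc5d to −0.041; there the replicate block ended the calls of Idi1 and Msmo1 (edgeR adjusted p = 0.0612 and 0.082).

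For the media within blocks, group means with no replicate block also called 0 genes, with Lss at 0.37 for DHA against LA (edgeR adjusted p = 1). DESeq2 called 10 genes and 1 member (DHA against LA), 2 (DHA against BSA) and 12 (LA against BSA). No filter gave 1 gene in each comparison with BSA, as did the shallower libraries alone, and leaving out 1 library gave 0 to 1 (DHA) and 0 to 2 (LA). At day 32 with FGF1 the replicate block gave 20 genes for DHA against LA and all 23 libraries gave 0, as they did for LA against BSA. Leaving out 1 library there gave 0 to 26 genes (DHA against LA), 0 to 1 (DHA against BSA) and 0 to 27 (LA against BSA), and 0 to 1 for the difference of day steps between DHA and LA.

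For DHA against LA at day 32 without FGF1, a replicate block shared by all shallower libraries called 0 genes, as the fit without it did. No fit paired only LA with DHA. Mvd was as low as 0.110 CPM in a shallower library (LA replicate 3 at day 32 without FGF1), where few counts stand behind it. DHA replicate 2 at day 32 without FGF1, of similar depth, had 9.07 CPM. The part of depth in these levels was not tested.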

Other observations

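The 19 enzyme genes can also be read per library, as the median log2 difference from the day 26 mean. The 6 deeper libraries of day 32 with FGF1 had medians between −0.64 (LA replicate 2) and −0.36 (DHA replicate 1), with 14 to 18 of the 19 genes below the day 26 mean. The 2 shallower libraries of day 32 with FGF1 had medians of −0.03 (BSA replicate 3) and 0.04 (LA replicate 3), with 10 and 9 genes below it. The deeper and shallower libraries with FGF1 thus did not overlap in this measure, which does not part genes by GC content. Over all members, the GC-rich ones had medians of −1.45 (BSA replicate 3) and −1.92 (LA replicate 3) in the 2 shallower libraries. The other members had 0.65 and 0.62 there, so the small medians do not show unchanged genes. The 9 libraries of day 32 without FGF1, all shallower, lay between −0.90 (LA replicate 3) and 0.00 (LA replicate 1).

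Abca1 was called higher against day 26 both with FGF1 (log2 0.92) and without it (0.90), comparisons that share the day 26 libraries. It had 97.4 to 227 CPM at day 32 without FGF1, 149 and 126 CPM in the shallower libraries with FGF1 and 99.8 to 202 CPM in the deeper libraries with FGF1, against 62.9 to 152 CPM at day 26. Its GC content is 47.7%. The comparison without FGF1 sets shallower against deeper libraries, and all genes at or below 48.9% GC had a median log2 difference of 0.71 there. With the GC offset, Abca1 was at 0.64 in that comparison.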
